A study of Mus musculus with 12 samples.

Results

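The Krtdap Dmkn Dpp4 fibroblasts were the mammary gland fibroblasts with Pi16 and Dpp4 that also carried Krtdap, Dmkn or Sbsn. They were chosen by measured values, in unique molecular identifiers (UMIs, 1 per captured mRNA molecule). Barcodes with fewer than 500 genes, fewer than 1000 UMIs or over 5% of mitochondrial UMIs were dropped. A cell counted as a fibroblast with at least 20 UMIs of Col1a1, Col1a2 and Col3a1 together and none of Ptprc, Pecam1 or Epcam. A Pi16 Dpp4 fibroblast had at least 20 UMIs of Pi16 and at least 2 of Dpp4. Cells with 10 or more UMIs of Fabp4, 2 or more of Cilp, both Pgr and Greb1, or 5 or more of Ifit1, Ifit3 and Isg15 together were then removed. Of the 7227 cells left, the 4485 with at least 5 UMIs of Krtdap, Dmkn and Sbsn together were the members, and the other 2742 are called Krtdap-low Pi16 Dpp4 fibroblasts. That name stands for a low sum of these genes, and a member can lack Krtdap. The members were 13.3% of 33709 fibroblasts, among 46257 cells that passed in all 12 libraries.

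Fibroblasts with Pi16, a secreted or membrane-anchored peptidase inhibitor family protein, and Dpp4, a cell-surface dipeptidyl peptidase, are known from the connective tissue sheets and vessel sheaths of many organs, where they are regarded as a progenitor-like stromal state. Krtdap (keratinocyte differentiation associated protein), Dmkn (dermokine) and Sbsn (suprabasin) are best known elsewhere, as secreted proteins of the differentiating layers of the epidermis. Igfbp5, named as a further marker of these cells, binds insulin-like growth factors outside the cell.

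The samples were dissociated mammary glands of C57BL/6J mice aged 43 weeks, 1 droplet 3′ library per group. Intact was the group labelled without VCD. All other groups received 4-vinylcyclohexene diepoxide (VCD) in sesame oil for 15 days, at 160 mg/kg each day, which destroys ovarian follicles while the rest of the ovary stays in place. VCD_Vehicle had neither hormone nor PBDE (polybrominated diphenyl ether flame retardants), and groups without PBDE ate matched food with DMSO. VCD_E2 received 1 µg of estradiol (E2) per animal per day for 1 week, VCD_E2_P4 received in addition 1 mg of progesterone (P4) per animal per day, and VCD_E2_ICI received E2 and 5 mg per animal of the estrogen receptor antagonist ICI once. VCD_Low_PBDE, VCD_Low_E2 and VCD_Low_E2_P4 were fed PBDE-47, PBDE-100 and PBDE-153 at 0.05, 0.0028 and 0.0063 mg/kg per day for 20 weeks. VCD_High_PBDE, VCD_High_PBDE_E2 and VCD_High_PBDE_E2_P4 were fed 1, 0.056 and 0.126 mg/kg per day for 1 week, so dose and duration cannot be told apart. VCD_Vehicle_NormEnv was a second vehicle group, and what its last word stands for is not given in the sources used here, nor is the number of animals that entered a library. The libraries held 2497 to 10006 barcodes and 41737881 to 109224969 UMIs (VCD_Low_E2_P4 had the most of both), the members had a median of 18736 UMIs, and 2 member barcodes occurred in more than 1 library.

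Sbsn, Dmkn and Krtdap stand next to each other on the plus strand of chromosome 7 (GRCm38, GENCODE M21). Sbsn is at chr7:30751471-30756134, Dmkn at chr7:30763756-30781063 and Krtdap at chr7:30787896-30791097. The stretch from the start of Sbsn to the end of Krtdap is 39627 bases long, with 7621 bases between Sbsn and Dmkn and 6832 between Dmkn and Krtdap. The promoters are shown because the genes that define these cells are neighbours whose UMIs rose and fell together from cell to cell. Each runs from 250 bases before to 50 bases after the RefSeq start on GRCm38.p6, at chr7:30751221-30751520 for Sbsn, chr7:30763506-30763805 for Dmkn and chr7:30787655-30787954 for Krtdap. Capitals mark TGANTCA (the AP-1 motif) and TATAAA on either strand.
Sbsn: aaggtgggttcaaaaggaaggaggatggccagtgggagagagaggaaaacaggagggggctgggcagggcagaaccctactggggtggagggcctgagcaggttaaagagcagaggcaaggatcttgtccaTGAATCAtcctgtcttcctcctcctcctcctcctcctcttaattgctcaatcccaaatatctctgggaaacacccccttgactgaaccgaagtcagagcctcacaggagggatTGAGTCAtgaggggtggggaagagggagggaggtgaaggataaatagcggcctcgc
Dmkn: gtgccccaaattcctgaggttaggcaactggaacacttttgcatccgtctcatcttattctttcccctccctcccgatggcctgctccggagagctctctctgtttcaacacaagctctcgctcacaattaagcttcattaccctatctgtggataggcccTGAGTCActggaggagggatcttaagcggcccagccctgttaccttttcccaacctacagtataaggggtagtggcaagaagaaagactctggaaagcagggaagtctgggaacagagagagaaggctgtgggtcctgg
Krtdap: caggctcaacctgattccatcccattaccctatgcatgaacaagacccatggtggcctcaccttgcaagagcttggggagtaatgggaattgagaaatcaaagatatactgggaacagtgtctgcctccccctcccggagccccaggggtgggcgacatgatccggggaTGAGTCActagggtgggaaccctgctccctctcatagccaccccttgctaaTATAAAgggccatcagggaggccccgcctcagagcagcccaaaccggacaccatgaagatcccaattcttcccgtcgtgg

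The letters TGANTCA occurred in each of the 3 promoters, at positions -119 and -6 from the start of Sbsn, -89 from that of Dmkn and -81 from that of Krtdap. They occurred in 7.81% of 32851 promoters of the same length. TATAAA occurred only in that of Krtdap, at -30, and in 13.6% of all promoters. The GC box letters GGGCGG (in 35.7% of all promoters), the E-box letters CAGCTG (16.3%) and the nuclear receptor response element letters AGGTCA (16.3%) were searched on both strands too and had no match in these windows. A match describes letters and not a bound site.

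The 3 genes were captured to different extents. Among the 4485 members, 99.8% had a UMI of Sbsn, 64.8% one of Krtdap and 64.8% one of Dmkn. The cell's sum of the 3 ranged from 5 to 256 UMIs, with a median of 18. All 3 genes were seen in 2161 members (48.2%), Sbsn with Dmkn in 738, Sbsn with Krtdap in 740 and Sbsn alone in 837 (18.7%). The genes varied together within the members: per 10000 UMIs, Spearman's rho over the cells was 0.41 for Krtdap and Dmkn, 0.37 for Krtdap and Sbsn and 0.38 for Dmkn and Sbsn. Within single libraries these values lay between 0.20 and 0.50. They are a description, since cells share a library and the rule used the sum of the 3 genes. Pi16 went with Sbsn at rho 0.28, whereas Dpp4 did not follow Krtdap (rho -0.07).

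The distribution had no gap at the threshold. The 294 cells with 4 UMIs of the 3 genes, just outside, had means of 3.58 UMIs of Sbsn, 0.241 of Krtdap and 0.180 of Dmkn, at a median depth of 17948.5 UMIs. The 226 cells with 5 UMIs, just inside, had 4.20, 0.420 and 0.381, at 18383.5 UMIs. This describes the sum that the rule cut, and whether the members stand apart by other genes was not tested by clustering. Among all fibroblasts, at least 5 UMIs of the 3 genes were found in 0.457% of the 10930 cells without a UMI of Pi16, in 14.6% of those with 10 to 19, in 25.7% of those with 20 to 29 and in 61.1% of those with 30 and more. Median depth rose along the same steps, from 14709.5 to 19759 UMIs.

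Few cells of a type that should lack the 3 genes carried them. In 6562 immune cells (Ptprc present, few collagen UMIs, median depth 7552 UMIs), Krtdap had a UMI in 0.884%, Dmkn in 3.57% and Sbsn in 4.72%. With every cell thinned to 5000 UMIs, which left out 22 members and 1908 immune cells, Krtdap was seen in 47.3% of members and 0.344% of immune cells, and Sbsn in 92.00% and 2.26%. Dmkn was seen in 45.7% of members and 2.32% of immune cells. Krtdap-low cells, whose shares the rule itself limits, had 2.18% with Krtdap, 2.41% with Dmkn and 26.9% with Sbsn at this depth.

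Summed over the members of a library, the level of Krtdap ran from 139 to 446 CPM (median 214), that of Dmkn from 160.4 to 403 CPM (median 233) and that of Sbsn from 600.5 to 1012 CPM (median 794), in UMIs per 1000000 UMIs of the summed cells (CPM, not divided by gene length since only 3′ ends are read). Krtdap was lowest in VCD_High_PBDE_E2 and highest in VCD_E2_ICI. Krtdap did not separate the hormone groups, at 178, 242 and 387 CPM without hormone, 336, 194 and 139 CPM with E2 and 259, 175 and 182 CPM with E2 + P4, in the order no, low and high PBDE. Libraries with and without hormone overlapped, and VCD_High_PBDE lay above all 6 hormone libraries. In the Krtdap-low cells the sums held from 2.11 to 9.95 CPM (median 4.30) of Krtdap and from 51.5 to 90.6 CPM (median 69.7) of Sbsn. These levels follow from the rule and were not tested.

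Of 18 further genes between Kmt2b and Fam187b, 5 were expressed highly enough to be tested between members and Krtdap-low cells and 0 of them passed, while 13 were not tested. In this comparison 18.1% of all genes tested passed, so 0 of 5 says little about the neighbourhood. Tmem147, an endoplasmic reticulum membrane protein gene, was at 71.3 ± 4.11 CPM (SD, n = 12 libraries) in members and 69.9 ± 5.74 CPM in Krtdap-low cells. Cox6b1, a subunit of cytochrome c oxidase, was at 267 ± 10.4 CPM and 267 ± 7.44 CPM, and the transcription factor gene Usf2 at 49.6 ± 6.67 CPM and 50.97 ± 7.55 CPM. Their ranges overlapped fully. Gapdhs, the neighbour before Sbsn, had 3 UMIs in all members together, and Ffar2, the neighbour after Krtdap, had none.

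**Figure D1:**
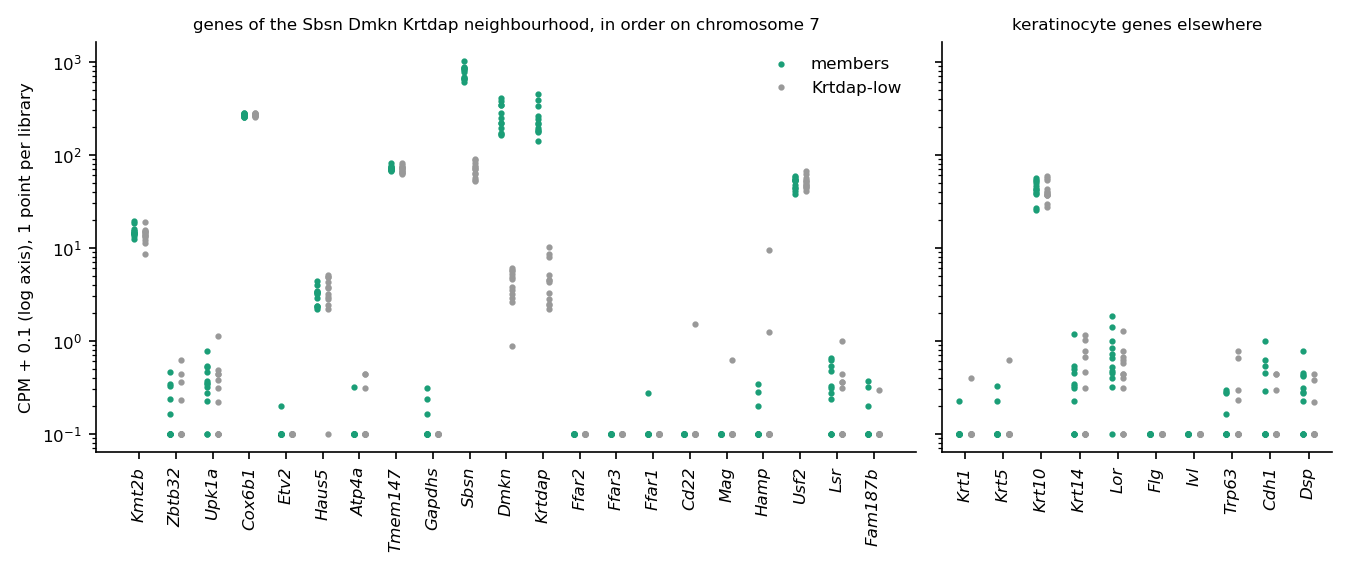
CPM + 0.1 on a log axis, 1 point per library (12 libraries), in members (green) and Krtdap-low Pi16 Dpp4 fibroblasts (grey), for genes in their order on chromosome 7 (left) and for keratinocyte genes elsewhere (right). Sbsn, Dmkn and Krtdap, which chose the members, stand above the Krtdap-low points, while Cox6b1, Tmem147 and Usf2 overlap, and of the keratinocyte genes shown Krt10 alone lies above 10 CPM.

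The members carried the fibroblast markers and nearly none of the epidermal ones. All 10 genes of a fibroblast list were present, led by Dcn (decorin), with a summed level of 18847 to 22803 CPM per library. Of 28 other epidermal keratinocyte genes, 9 were at 0 in all members, among them Flg (filaggrin), Ivl (involucrin), Krt2 and Dsg3. Krt10, a suprabasal keratin, was the leading gene of this list at 42.5 ± 9.73 CPM and stood at 41.1 ± 9.80 CPM in Krtdap-low cells. No other gene of the list was above 2.12 CPM on average. Krt5 and Krt14, keratins of basal cells, had 2 and 25 UMIs in all members together. The list summed to 31.6 to 62.8 CPM in members and 32.3 to 64.4 CPM in Krtdap-low cells. The label thus describes fibroblasts with UMIs of up to 3 epidermal genes and does not describe keratinocytes.

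Of 12 mesothelial genes, 3 were at 0 (Lrrn4, Muc16 and Upk1b), Msln had 3 UMIs in all members, and Krt19, a keratin of simple epithelia, led the list. The luminal epithelial list was led by Cldn3, a tight junction claudin, while Elf5 was at 0 and Krt8 and Krt18 were near 1 CPM. The immune list summed to 26.3 to 81.2 CPM, the endothelial list to 33.8 to 56.4 CPM and the pericyte and muscle list to 6.27 to 46.6 CPM. The highest sums of other cells were those of the Schwann cell list, at 283 to 413 CPM, led by Pmp22 and Mbp, and of the adipocyte list, at 145 to 288 CPM, led by Lpl and Pparg, with Cidec and Lep at 0. Ptprc, Pecam1 and Epcam were absent by the rule. In Krtdap-low cells the immune list summed to 28.4 to 246 CPM (median 44.3), against a median of 49.8 CPM in members. The part of immune RNA in genes that were lower in members was not tested.

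The share of members among the Pi16 Dpp4 fibroblasts that passed all removing steps ran from 46.1% in VCD_Vehicle (244 of 529 cells, exact binomial interval 41.8% to 50.5%) to 84.4% in VCD_E2 (206 of 244, 79.3% to 88.7%). VCD_Vehicle_NormEnv was next lowest, at 48.1% (389 of 809), followed by Intact at 56.4% (267 of 473). VCD_High_PBDE_E2 was at 59.5%, VCD_E2_P4 at 69.5% and VCD_High_PBDE at 69.4%, and the other 5 libraries lay between 63.3% and 65.3%. The intervals of both vehicle libraries without fed PBDE ended below the interval of every other library, Intact included (51.8% to 61.0%). The intervals cover counting error only, each group is 1 library, and the shares were not tested between groups. Thinning to 10000 UMIs left out 5770 of 33709 fibroblasts, among them 2156 of 5470 in VCD_Low_E2_P4 and 178 of 2475 in VCD_E2. In the thinned cells the shares ran from 35.95% in VCD_Vehicle to 77.1% in VCD_E2. The place of VCD_E2 rested on the removing steps: with them left out, 66.7% of its Pi16 Dpp4 fibroblasts (454 of 681, 62.99% to 70.2%) had 5 or more UMIs of the 3 genes, level with the 66.9% of VCD_High_PBDE (683 of 1021, 63.9% to 69.8%). VCD_Vehicle and VCD_Vehicle_NormEnv were still lowest, at 43.7% and 46.4%, but the interval of Intact, at 48.4% (44.6% to 52.1%), then overlapped theirs.

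As a share of all fibroblasts, members ran from 6.93% in VCD_Low_E2 (190 of 2742) to 23.0% in VCD_High_PBDE (569 of 2478). The steps that remove cells took away very different parts of the Pi16 Dpp4 fibroblasts, from 9.08% in VCD_Low_PBDE to 64.2% in VCD_E2 and 67.3% in VCD_Low_E2. Most of this was the interferon step: 53.7% of the Pi16 Dpp4 fibroblasts of VCD_E2 and 56.0% of those of VCD_Low_E2 had 5 or more UMIs of Ifit1, Ifit3 and Isg15, against 14.8% in VCD_Vehicle and 4.94% in VCD_Low_PBDE. By the rule, the members of every library are cells with few of these interferon-induced transcripts. Fewer members and less RNA of the 3 genes per cell cannot be told apart from these counts.

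**Figure D2:**
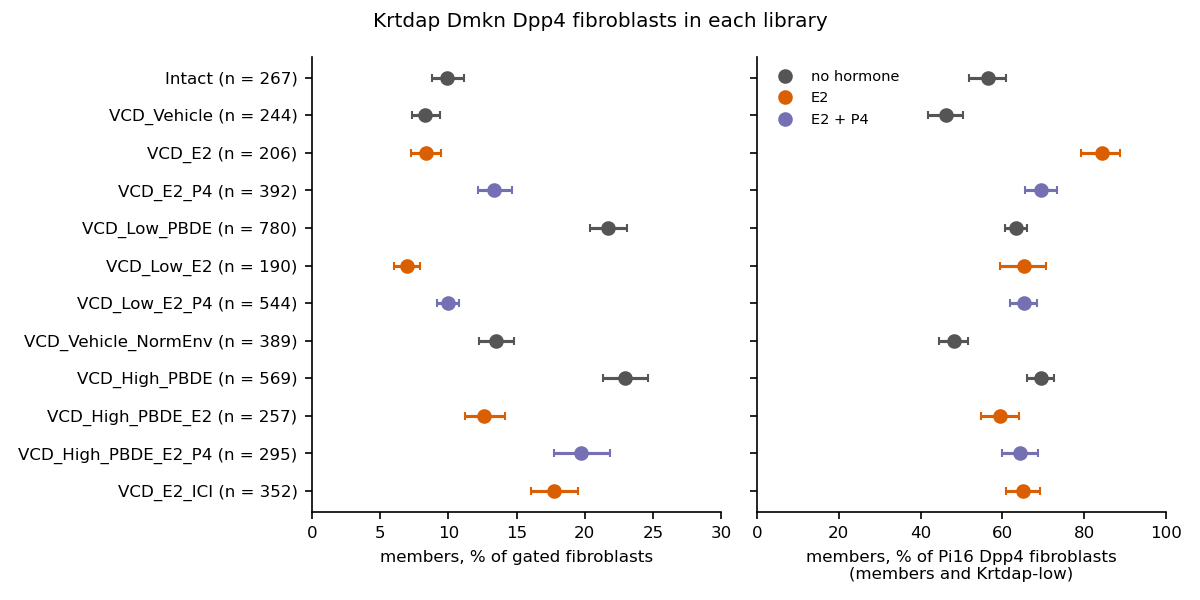
Members as a percentage of all gated fibroblasts (left) and of the Pi16 Dpp4 fibroblasts that passed the removing steps (right) in each library, with exact 95% binomial intervals and the number of members in brackets. Colours give the hormone; VCD_Vehicle (46.1%) and VCD_Vehicle_NormEnv (48.1%) are lowest on the right and VCD_E2 (84.4%) is highest.

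Members were compared with Krtdap-low Pi16 Dpp4 fibroblasts of the same library, over 12 libraries (edgeR quasi-likelihood test on summed UMIs, library as a block). The Benjamini-Hochberg adjustment was over all genes kept, rule genes included. Counts and shares are over the 11454 genes left without the rule genes. The members had more mRNA of Il34, Bmp3, Rspo3 and Igfbp5, which encode secreted proteins, and of the surface protein genes Gabra2 and Cldn3, and less of Igf1, Myoc and 15 of 26 genes of a matrix list. In all, 1028 genes were higher (8.98%) and 1042 lower (9.10%) in members. Of the 22 genes named by size, all had the same sign in 12 of 12 libraries by the rule that named them. Members and Krtdap-low cells had median depths of 18736 and 17718 UMIs.

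Gabra2, a subunit of the GABA-A receptor, ran from 5.66 to 48.4 CPM (median 18.2) in members and from 1.02 to 11.1 CPM (median 3.64) in Krtdap-low cells (log2 fold change 2.40 ± 0.12 (SE), adjusted p = 5.2e-13). The ranges overlapped between libraries, but within each library the members were higher. Il34, a ligand of the CSF1 receptor on macrophages, ran from 40.8 to 125 CPM (median 75.96) against from 7.34 to 30.9 CPM (median 14.4) (log2 fold change 2.11 ± 0.07 (SE), adjusted p = 1.3e-16), with no overlap between the ranges. A UMI of Il34 was present in 50.01% of members, 17.3% of Krtdap-low cells and 0.716% of immune cells, and with each cell thinned to 5000 UMIs in 28.03%, 7.70% and 0.279%. Dact2, an antagonist of Wnt and TGF-beta signalling inside the cell, was at 51.1 ± 33.2 CPM against 15.7 ± 10.9 CPM (SD, n = 12; log2 fold change 1.65). Bmp3, a BMP family member that opposes BMP signalling, was at 81.9 ± 32.8 CPM against 27.7 ± 10.5 CPM (1.49).

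Igfbp5 ran from 5587 to 8708 CPM (median 7561), against from 2390.1 to 4329.6 CPM (median 3553) in Krtdap-low cells (log2 fold change 1.16 ± 0.05 (SE), adjusted p = 8.4e-14). All 12 member values lay above all 12 Krtdap-low values. Igfbp5 had been named as a marker of these cells with results of these data known, so its direction is not independent evidence. Akr1c18, which inactivates progesterone by reduction, was at 719 ± 198 CPM against 342 ± 103 CPM (log2 fold change 1.10 ± 0.06 (SE), adjusted p = 1.3e-12). Cldn3 was at 42.97 ± 19.8 CPM against 15.8 ± 7.92 CPM, Itgb7, an integrin chain of lymphocyte homing, at 149.6 ± 50.9 CPM against 53.5 ± 25.6 CPM, and Rspo3, a secreted enhancer of Wnt signalling, at 22.7 ± 8.84 CPM against 8.87 ± 4.50 CPM, with log2 fold changes of 1.38, 1.505 and 1.37. Itgb7 is also a gene of immune cells, where 63.1% had a UMI, while Lyz2 and Tyrobp stood among the leading genes of an immune list that summed to at most 81.2 CPM in members. The part of this in the result was not tested. Matn4 (matrilin 4), Ccdc3 and Tmeff1 were higher by 1.51, 1.13 and 1.05 on the log2 scale.

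Among genes lower in members, Wisp2, a secreted CCN family protein, ran from 2.94 to 39.99 CPM (median 8.97) against from 14.6 to 91.4 CPM (median 40.5) (log2 fold change -1.80 ± 0.20 (SE), adjusted p = 2.5e-07). Tgfbi, a matrix protein induced by TGF-beta, ran from 12.1 to 41.7 CPM (median 21.8) against from 33.6 to 139 CPM (median 78.4) (log2 fold change -1.63 ± 0.09 (SE), adjusted p = 2.1e-12). Igf1, the insulin-like growth factor, ran from 29.2 to 69.1 CPM (median 51.9) against from 79.1 to 156 CPM (median 106) (log2 fold change -1.20 ± 0.07 (SE), adjusted p = 6.6e-12), with no overlap between members and Krtdap-low cells. Myoc (myocilin), a secreted glycoprotein, was at 625 ± 228 CPM against 1328 ± 424 CPM (-1.11). Angptl1, Fam198b, Gas6 (a ligand of TAM receptors), Gpnmb, Steap4 and Dkk2 (a Wnt co-receptor ligand) had log2 fold changes between -1.57 and -1.19. Cells with Cilp were removed by the rule, and in those removed cells Wisp2 stood at 538 CPM, Myoc at 2190.0 CPM and Igf1 at 372 CPM. Each of these levels was above that of the Krtdap-low cells, 46.4, 1370.2 and 109 CPM over all libraries pooled. The pools drew on unlike libraries: VCD_Low_E2 gave 252 cells with Cilp and 101 Krtdap-low cells, and VCD_Low_PBDE gave 33 and 452. The part of the hormone in this difference was not tested.

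**Figure D3:**
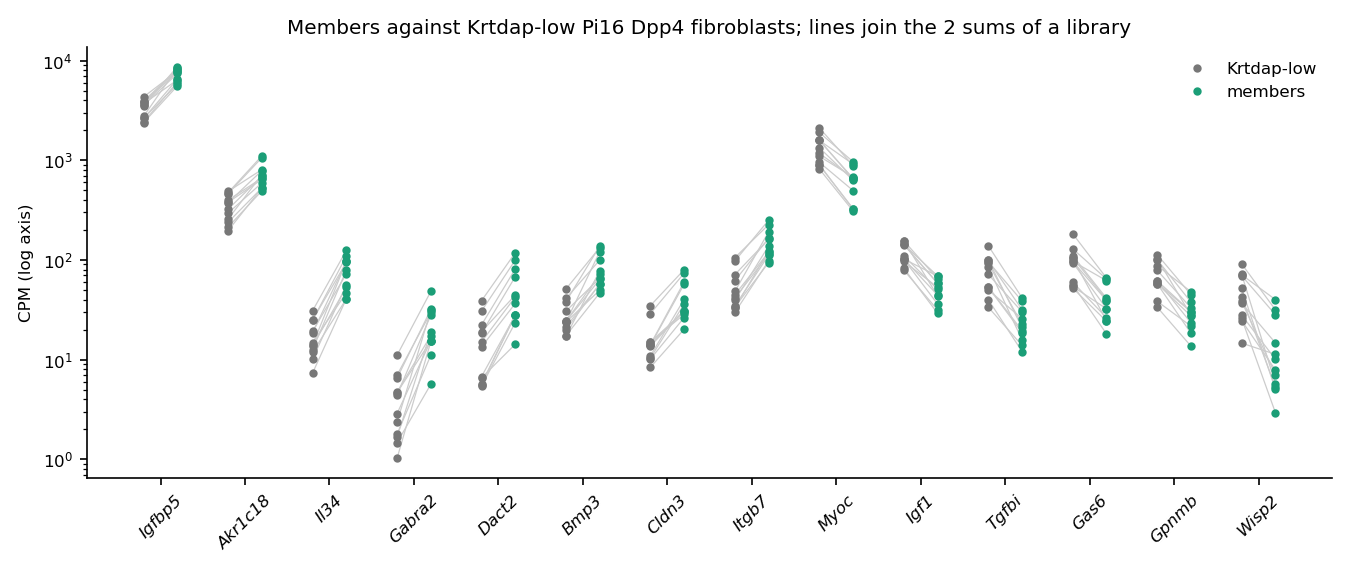
CPM on a log axis of 14 genes in members (green) and Krtdap-low Pi16 Dpp4 fibroblasts (grey), 1 point per library and lines joining the 2 values of each of 12 libraries. Every line rises for the 8 genes on the left, such as Igfbp5 (mean 7252 against 3296 CPM), and falls for the 6 on the right, such as Igf1 (mean 50.7 against 118).

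The other genes known for Pi16 Dpp4 fibroblasts were mostly higher in members. Of 28 genes of this programme, 20 were higher, 4 lower and the rest did not pass, with a median log2 fold change of 0.28 over the 28, against a median of 0.00051 over all genes tested. This list, like the lists that follow, was drawn up with these data known and is no independent evidence of its direction. Cd55, a brake on complement, was at 899 ± 98.6 CPM against 614 ± 71.1 CPM (log2 fold change 0.56 ± 0.03 (SE), adjusted p = 4.8e-13). Aldh1a3, a retinoic acid synthesizing enzyme, was at 404 ± 44.3 CPM against 260.2 ± 41.3 CPM (0.64), Bmp7 at 66.3 ± 16.9 CPM against 37.9 ± 16.7 CPM (0.76) and Wnt2 at 296 ± 53.5 CPM against 218 ± 38.95 CPM (0.45). Limch1, Uchl1, Sema3c and Anxa3 were higher by 0.78, 0.78, 0.31 and 0.26. Fn1 (fibronectin), Heg1, Ly6c1 and Opcml were the 4 lower ones, Fn1 with a log2 fold change of -0.20.

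Ligands and secreted antagonists of Wnt, BMP and TGF-beta signalling moved both ways. Of 26 tested genes of a list of 30, 11 were higher and 10 lower, with a median log2 fold change of -4.3e-04. The 11 were Bmp1, Bmp2, Bmp4, Bmp6, Bmp7, Ltbp1, Rspo3, Wnt2, Wnt5b, Wnt10b and Wnt11. Among the 10 were the antagonists and binding proteins Chrdl1, Dkk2, Sfrp1, Sfrp2 and Sfrp4, together with Gdf10, Ltbp4, Tgfbr3 and Wnt5a. Bmp2 was at 100.0 ± 28.96 CPM against 57.6 ± 16.7 CPM (log2 fold change 0.76 ± 0.07 (SE), adjusted p = 3.7e-08) and Bmp4 at 36.5 ± 10.2 CPM against 21.2 ± 8.26 CPM (0.67). Sfrp4, a decoy for Wnt ligands, was at 475 ± 144 CPM against 652 ± 156 CPM (log2 fold change -0.47 ± 0.05 (SE), adjusted p = 4.0e-08), and Sfrp1 was at 11.96 ± 2.97 CPM against 24.2 ± 9.83 CPM (-1.02).

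Matrix and proteoglycan genes were mostly lower. Of 26 genes of a fascia and dermal matrix list, 15 were lower and 4 higher, with a median of -0.27. Postn (periostin) was at 259 ± 65.6 CPM against 398 ± 78.9 CPM (log2 fold change -0.61 ± 0.06 (SE), adjusted p = 7.6e-08), and Thbs1 (thrombospondin 1) and Col4a1, a basement membrane collagen, had log2 fold changes of -0.94 and -0.64. The 4 higher genes were Mfap5, Efemp1 and Fbn1, of microfibrils and elastic fibres, and Aspn (asporin), and Mfap5 was at 2673 ± 342 CPM against 2041 ± 265 CPM (0.40). Of 9 tested small leucine-rich proteoglycan genes, 5 were lower and 2 higher (median -0.17), with Bgn (biglycan) at -1.06. Pdgfra, a PDGF receptor gene by which fibroblasts are known, was at 217 ± 22.6 CPM against 291 ± 30.1 CPM (-0.41).

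In the insulin-like growth factor axis, 3 of 11 tested genes were higher and 4 lower (median -0.25). Igfbp5, Igfbp6 (0.41) and Igfbp4 were higher, and Igfbp3 (-1.44), Igfbp7 (-0.94), Igf1 and the protease gene Htra1 were lower. Igfbp3 was at 71.6 ± 37.6 CPM against 195 ± 135 CPM. The binding protein genes of the family thus did not move one way.

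Of 14 tested complement genes, 8 were lower and Cd55 was higher (median -0.25). C3, the central component, was at 3299 ± 619.6 CPM against 3759 ± 695 CPM (-0.18), and C4b had a log2 fold change of -0.77. Of 20 tested cytokine and chemokine genes, 4 were higher (Il33, Ccl2, Cxcl1 and Cxcl2) and 9 lower (median -0.18). Il33, a nuclear alarmin cytokine, was at 359 ± 75.1 CPM against 185 ± 79.96 CPM (log2 fold change 1.02 ± 0.08 (SE), adjusted p = 6.1e-10), and Cxcl12, the ligand of CXCR4, at 86.4 ± 35.9 CPM against 141 ± 38.9 CPM (-0.71). Of 12 tested retinoid and prostaglandin genes, 4 were higher and 5 lower (median -0.16). Ptgs1 (cyclooxygenase 1) was at 79.7 ± 17.7 CPM against 37.97 ± 8.66 CPM (log2 fold change 1.05 ± 0.07 (SE), adjusted p = 4.6e-11).

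Krt19 was at 129 ± 36.96 CPM in members and 67.9 ± 25.5 CPM in Krtdap-low cells (log2 fold change 0.94 ± 0.05 (SE), adjusted p = 2.1e-12), while the mesothelial genes Msln and Upk3b had 3 and 5 UMIs in all members. Of 3 tested mesothelial genes, Krt19 was higher and Rspo1, a secreted enhancer of Wnt signalling, lower (-1.18), with a median of -0.86. Of 6 tested Schwann cell genes, Mbp was higher and Cdh19 and S100b lower (median -0.20). Of 5 tested adipocyte genes, 2 were lower and 0 higher, among them Lpl (lipoprotein lipase) with -0.50. Over all genes tested, 8.98% were higher and 9.10% lower, so counts in lists this small say little about the list. Of 19 tested genes of an estrogen target list, 1 was higher and 11 lower (median -0.31). Esr1, the estrogen receptor alpha gene, was at 82.04 ± 13.1 CPM against 84.6 ± 11.3 CPM, with a log2 fold change of -0.02 ± 0.04 (SE) that did not pass the test. Of 23 tested immediate early genes, which rise within minutes of stress and tissue dissociation, 12 were lower and 3 higher (median -0.13): Jun had a log2 fold change of -0.44, Fos of -0.20 and Nr4a1 of 0.29. The part of this in the other lists was not tested.

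Most of the named genes followed the 3 epidermal genes stepwise, also inside the members. Of the 22, 20 changed in their direction at each of 5 changes of step, while Matn4 and Wisp2 did so at 4 of 5. For cells with 0, 1 to 4, 5 to 9, 10 to 19, 20 to 39 and 40 or more UMIs of Krtdap, Dmkn and Sbsn, mean Igfbp5 over the 12 libraries was 2753, 3662, 5029, 6189.8, 7918 and 10372 CPM. Il34 was at 14.03, 19.2, 38.7, 58.4, 87.2 and 128 CPM and Gabra2 at 1.57, 5.91, 9.93, 14.5, 24.98 and 41.3 CPM in the same steps. Myoc fell along them, at 1434, 1239, 779, 708, 599 and 352 CPM, as did Igf1, at 139, 104, 75.6, 61.1, 45.4 and 20.2 CPM. Dpp4 stayed nearly level, at 593, 617, 630.0, 600.0, 607 and 563 CPM, and so did Esr1, at 82.8, 87.3, 87.8, 82.6, 80.5 and 77.6 CPM. Pi16, used by the rule like Dpp4, climbed from 3501 CPM in the first step to 6128 CPM in the last. The first 2 steps are Krtdap-low cells, and the steps held 1135, 1607, 1062, 1340, 1268 and 815 cells. Median depth ran from 17580.0 UMIs in the first to 20280.0 in the last. These steps are cut on measured values and are a description. The 22 genes were named for their difference across the threshold of this same sum, so their direction there follows from that choice. How many other genes change in this way was not counted.

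**Figure D4:**
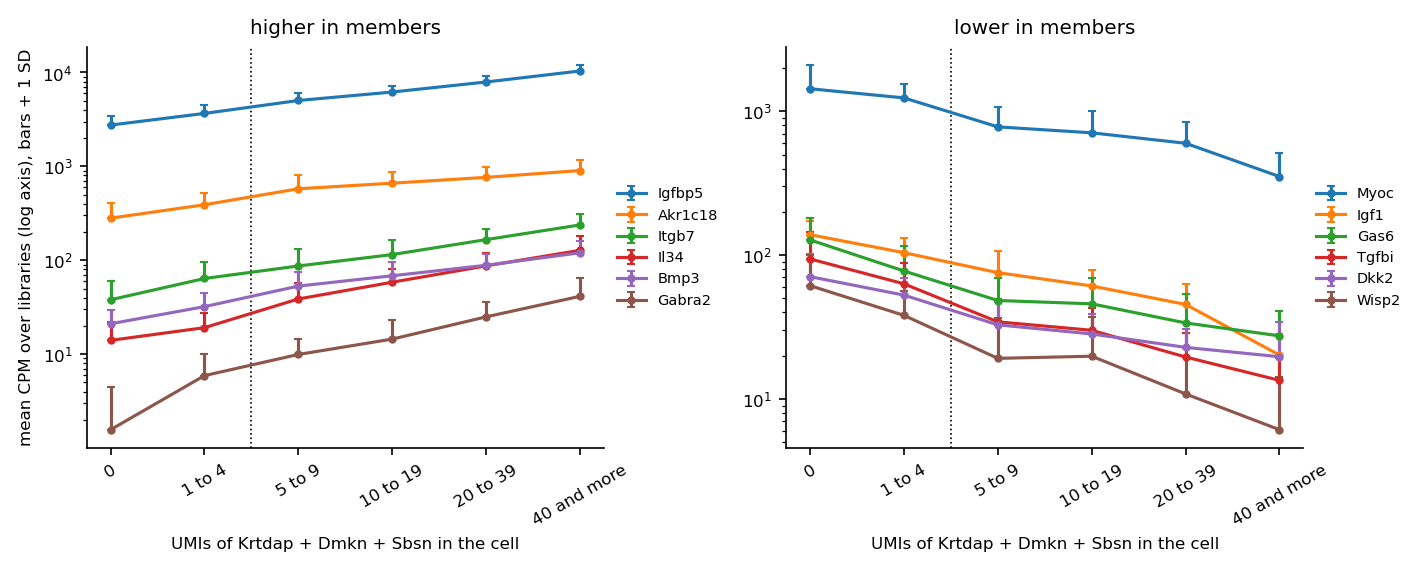
Mean CPM over the libraries (log axis, bars + 1 SD) in Pi16 Dpp4 fibroblasts grouped by the cell's UMIs of Krtdap, Dmkn and Sbsn; the dotted line is the threshold of membership. Genes on the left climb from the first to the last step (Igfbp5 from 2753 to 10372 CPM), and genes on the right decline (Myoc from 1434 to 352).

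The response of the members to hormones was tested in the 9 libraries that cross no hormone, E2 and E2 + P4 with no, low and high PBDE. No group has a second library, so the spread is the departure from an additive layout with 4 residual degrees of freedom, and p-values measure only that spread. The estrogen contrast set the average of the libraries with E2 and with E2 + P4 against those without hormone. Of 11263 genes, 266 passed (2.36%), 181 higher (1.61%) and 85 lower (0.755%) with hormone. The antioxidant enzyme Gpx3, Igf1 and 13 of 34 tested interferon-induced genes rose, and Itgb7, Bambi and Gadd45a fell. The count depended on single libraries: it was 12 without VCD_Low_PBDE, 55 without VCD_Low_E2, 69 without VCD_High_PBDE, 75 without VCD_Low_E2_P4, 103 without VCD_High_PBDE_E2_P4, 119 without VCD_E2_P4, 155 without VCD_High_PBDE_E2 and 620 without VCD_Vehicle. With the steps that remove interferon-high and other cells left out, it was 877. The names of the deposited files carry 1 of 2 tags, of unstated meaning: VCD_Vehicle, VCD_E2, VCD_E2_P4 and VCD_Low_PBDE share one and the other 5 libraries of the layout share the other. With the tag as a covariate the count was 12. Within a PBDE level the tag differed only by VCD_Low_PBDE. For the hormone contrasts this fit thus amounts to leaving that library out and is no separate check.

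Gpx3, a secreted glutathione peroxidase, was 675, 414 and 726 CPM without hormone, 1119, 1505 and 1893 CPM with E2 and 2675, 2855 and 3798 CPM with E2 + P4, each in the order no, low and high PBDE. By the rule that named Gpx3, all 6 hormone libraries lay above the 3 without hormone, and so also within each of the 2 tags (log2 fold change 1.86 ± 0.16 (SE), adjusted p = 0.00267). The 3 with P4 lay above the 3 with E2 alone, but this difference did not pass (log2 fold change 1.09 ± 0.17, adjusted p = 0.0747). Outside the layout, VCD_Vehicle_NormEnv, also without hormone, had a Gpx3 level whose counting interval overlapped that of VCD_E2. Ccdc80, a secreted matrix protein, was 159.8, 110.0 and 126 CPM without hormone, 265, 284 and 261 CPM with E2 and 381, 474 and 343 CPM with E2 + P4 (log2 fold change 1.34 ± 0.12 (SE), adjusted p = 0.00267). Irf7, a transcription factor of the interferon response, was 88.5, 43.04 and 58.8 CPM without hormone, 181, 173 and 149.7 CPM with E2 and 296, 267 and 248 CPM with E2 + P4 (log2 fold change 1.82 ± 0.15 (SE), adjusted p = 0.00267). Hormone and hormone-free libraries did not overlap for either gene, by the rule that named them. Figf (VEGF-D) was 89.8, 70.96 and 78.2 CPM without hormone, 109, 148 and 215 CPM with E2 and 163, 229 and 280.2 CPM with E2 + P4 (log2 fold change 1.21 ± 0.17 (SE), adjusted p = 0.0127).

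Ctla2a, a cysteine protease inhibitor with a close paralog that can share reads, had the highest contrast, but among these 9 libraries its level was above 20 CPM only with P4. It was 3.19, 3.12 and 2.96 CPM without hormone, 4.25, 14.5 and 4.16 CPM with E2 and 354, 306 and 395 CPM with E2 + P4 (log2 fold change 4.10 ± 0.37 (SE), adjusted p = 0.00267). Ggt5, which cleaves glutathione conjugates, was 15.96, 8.25 and 8.67 CPM without hormone, 18.4, 34.9 and 43.8 CPM with E2 and 45.6, 38.2 and 56.4 CPM with E2 + P4 (log2 fold change 1.92 ± 0.28 (SE), adjusted p = 0.0143). Fmo2, Ccl8, Adm (adrenomedullin), Spon1 and Lpar4 rose by 1.78, 1.64, 1.49, 1.39 and 1.30 on the log2 scale. Of these named genes, Ctla2a, Gpx3, Irf7 and Ccdc80 passed in each of 19 alternatives, while Spon1 passed in 11 of 19 and Adm in 13.

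Among genes that fell, Itgb7, which also marked the members against Krtdap-low cells, was 165, 227 and 251 CPM without hormone, 119.5, 94.2 and 114 CPM with E2 and 123, 97.9 and 112 CPM with E2 + P4 (log2 fold change -0.94 ± 0.14 (SE), adjusted p = 0.0143). Tmem229a was 37.02, 27.7 and 31.9 CPM without hormone, 12.8, 17.1 and 18.8 CPM with E2 and 11.9, 11.1 and 13.8 CPM with E2 + P4 (log2 fold change -1.16 ± 0.12 (SE), adjusted p = 0.00595) and passed in each of 19 alternatives. Bambi, a decoy receptor for BMP and TGF-beta, was 33.8, 44.8 and 54.9 CPM without hormone, 28.4, 16.6 and 21.4 CPM with E2 and 21.7, 22.3 and 20.4 CPM with E2 + P4 (log2 fold change -1.02 ± 0.17 (SE), adjusted p = 0.0215). By the rule that named these 3 genes, no hormone library of the layout reached a library without hormone. Itgb7 passed in 14 of 19 alternatives and in 5 of 9 fits without 1 library, and Bambi in 11 of 19 and in 2 of 9. Rasl11a, Sema4c, Gadd45a, Arhgef28 and Nop58 had log2 fold changes from -2.03 to -0.68, and all 5 lost the call in some alternatives, Nop58 in 10 of 19.

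Of 34 tested interferon-induced genes, 13 rose and 0 fell (median 0.56, against -0.01 over all genes tested). Bst2 (tetherin) was 374, 226 and 230.2 CPM without hormone, 512, 502 and 371 CPM with E2 and 669, 592 and 489 CPM with E2 + P4 (log2 fold change 0.95 ± 0.11 (SE), adjusted p = 0.00675), and Ifitm3 rose by 0.77. These changes are among cells kept for low Ifit1, Ifit3 and Isg15, since the rule removed the interferon-high cells of every library. Of 20 tested genes of the estrogen target list, 6 rose and 0 fell (median 0.36). The list was drawn up with these data known and holds Ctla2a and Ggt5, so it is no independent evidence of this direction. Igf1 was 31.5, 29.2 and 36.1 CPM without hormone, 43.6, 44.3 and 68.9 CPM with E2 and 58.4, 69.1 and 58.2 CPM with E2 + P4 (log2 fold change 0.85 ± 0.13 (SE), adjusted p = 0.0157). Of 26 matrix genes, 5 rose and 1 fell (median 0.32), with Ogn (osteoglycin) higher by 0.54. Of 28 genes of the Pi16 Dpp4 programme, 2 rose (Ly6a and Ly6c1) and 3 fell (Bmp7, Dact2 and Smpd3), with a median of -0.12. Igfbp5 had a log2 fold change of -0.28 ± 0.08 and Esr1 one of -0.03 ± 0.15 (SE), and neither passed, although Igfbp5 passed in 3 of 19 alternatives. Few markers of other cells could be tested in this contrast (6 immune, 5 Schwann cell, 3 luminal, 3 mesothelial, 2 adipocyte, 2 endothelial and 2 pericyte and muscle genes), and S100b of the Schwann cell list alone passed. The 6 immune genes had a median log2 fold change of 0.66, whose part in the interferon change was not tested, and the immune list summed to 31.2 to 42.6 CPM without and 26.3 to 74.8 CPM with hormone.

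**Figure D5:**
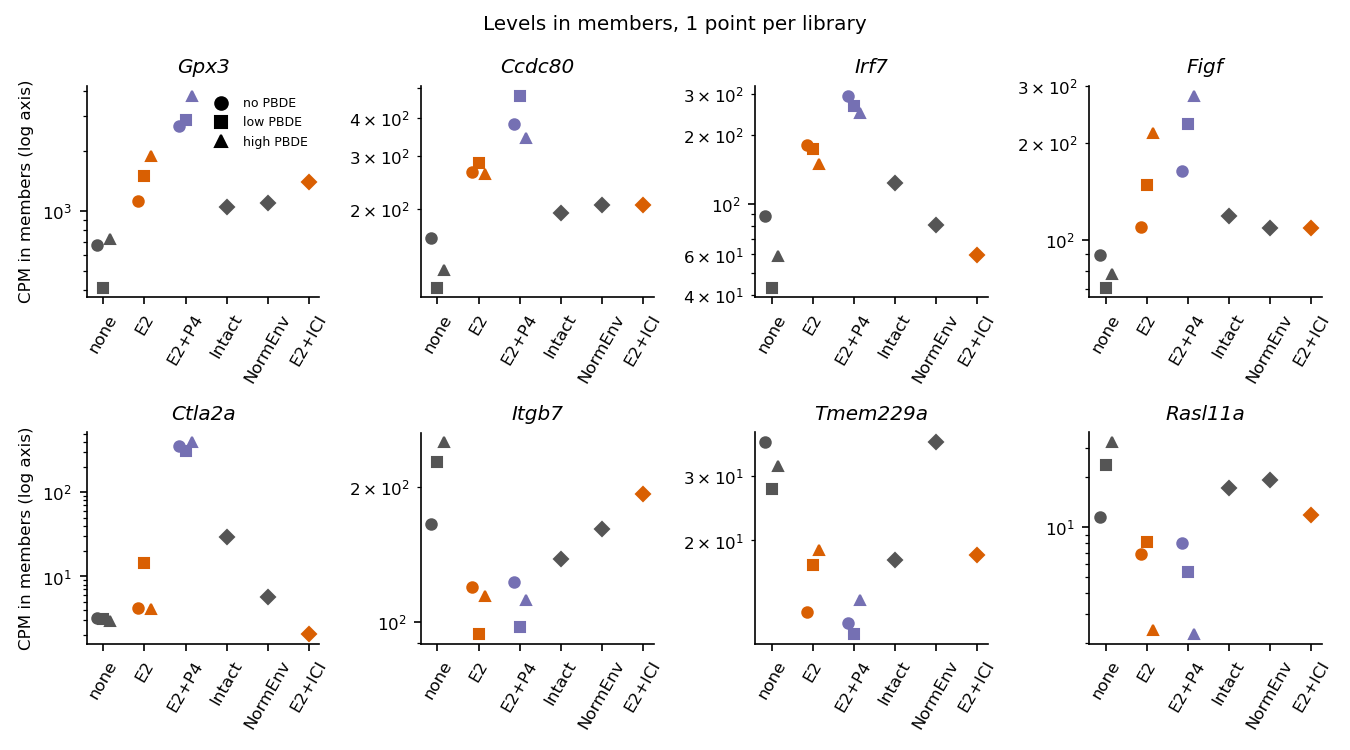
CPM in members (log axes), 1 point per library, for 8 genes; circles, squares and triangles are no, low and high PBDE in the 9 libraries of the layout, diamonds are Intact, VCD_Vehicle_NormEnv and VCD_E2_ICI. Gpx3, Ccdc80, Irf7 and Figf lie higher and Itgb7, Tmem229a and Rasl11a lower with hormone, and Ctla2a lies above 300 CPM only with E2 + P4.

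E2 + P4 against E2 alone gave 3 genes of 11263 (0.0266%), all higher with P4. For Ctla2a the log2 fold change was 5.63 ± 0.36 (SE) with an adjusted p = 7.7e-04. Igfbp4, an inhibitory IGF binding protein, was 1128, 1174 and 1289.8 CPM with E2 and 2110.1, 1859 and 2382 CPM with E2 + P4 (log2 fold change 0.86 ± 0.09 (SE), adjusted p = 0.0216). Serping1, the C1 inhibitor of complement, was 1537, 1672 and 2307 CPM and 2408, 2648 and 3489.7 CPM (log2 fold change 0.68 ± 0.07 (SE), adjusted p = 0.0216). The 2 groups of 3 did not overlap for any of the 3 genes. DESeq2 called 40 genes, and the count was 40 without VCD_Vehicle, 12 without VCD_High_PBDE, 8 without VCD_Low_PBDE, 2 without VCD_High_PBDE_E2 and 1 without any one of the other 5 libraries.

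Low PBDE against none gave 0 genes by edgeR (0.0% of 11263), with 474 at an unadjusted p under 0.05 and 2 by DESeq2. Of 17 tested genes of the xenobiotic and oxidative stress response, 0 passed with low and 0 with high PBDE (median log2 fold changes 0.07 and 0.12, against -0.0015 and 0.0043 over all genes tested). High PBDE against none gave 24 (0.213%), 13 higher and 11 lower. Dact2 was 118, 99.8 and 67.96 CPM with high PBDE (no hormone, E2, E2 + P4) and 36.6, 27.98 and 14.3 CPM without PBDE (log2 fold change 1.89 ± 0.13 (SE), adjusted p = 0.0013). VCD_E2_ICI and VCD_Vehicle_NormEnv, which had no PBDE, were at 81.3 and 44.4 CPM. The transcripts AY036118, Gm42418, Lars2 and Gm10076, which share sequence with ribosomal RNA or gene copies and are uncertain, fell by 3.38, 2.34, 1.75 and 1.57 on the log2 scale. AY036118 was at 23.3, 18.8 and 15.2 CPM with high PBDE and 27.9 CPM in VCD_E2_ICI and 67.7 CPM in VCD_Vehicle_NormEnv, against 149, 213 and 231 CPM in VCD_Vehicle, VCD_E2 and VCD_E2_P4. The 3 high PBDE libraries share a file-name tag that the 3 without PBDE do not have, and VCD_E2_ICI and VCD_Vehicle_NormEnv have it too. With the tag as a covariate, whose effect then rested on VCD_Low_PBDE alone, the count was 0. With VCD_Vehicle_NormEnv added to the layout the count was 7. The 3 high PBDE libraries and VCD_E2_ICI also had the 4 lowest UMI totals (41737881 to 50137572), whose part in this result was not tested. Usp2, Mxi1 and Prdm8 were higher by 0.99, 0.84 and 0.79. Of 19 alternatives, Dact2 passed in 18, AY036118 in 16, Lars2 in 14, Prdm8 in 12, Mxi1 and Gm10076 in 10 and Usp2 and Gm42418 in 4. The 24 became 74 without VCD_High_PBDE and 71 without VCD_Vehicle, 13 without VCD_Low_PBDE, 6 without VCD_Low_E2_P4, 3 without VCD_E2, VCD_E2_P4 or VCD_Low_E2 and 2 without VCD_High_PBDE_E2 or VCD_High_PBDE_E2_P4.

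The estrogen contrast in members was set against that in Krtdap-low cells of the same 9 libraries by the interaction of population and hormone. Of 11349 genes, 16 differed (0.141%), 15 of them with the more positive contrast in members. The counts of cells were small, with 38 Krtdap-low cells in VCD_E2. Il33 was 419, 454 and 469 CPM without hormone, 311, 307 and 444 CPM with E2 and 329.6, 244 and 295 CPM with E2 + P4 in members, and 249, 312 and 317 CPM, 122, 144 and 226 CPM and 124, 104 and 98.9 CPM in Krtdap-low cells. The difference of the log2 contrasts was 0.67 ± 0.08 (SE, adjusted p = 7.7e-04). In members alone the contrast did not pass (log2 fold change -0.48 ± 0.12, adjusted p = 0.0762), and it passed in 3 of 19 alternatives. Cxcl13, a B cell chemokine, differed by 1.08 ± 0.16 (adjusted p = 0.00549): in members it was 102, 71.8 and 106 CPM without hormone, 33.1, 145 and 158 CPM with E2 and 278, 585 and 636 CPM with E2 + P4, and in Krtdap-low cells 199.8, 255 and 389.8 CPM, 93.8, 246 and 295 CPM and 358, 618 and 673 CPM. Dcn, Fbln1, Igfbp4, Sfrp2 and Hmox1 were among the other genes with a more positive contrast in members, named after their values were seen. The count was 1 without VCD_Low_PBDE, 5 without VCD_High_PBDE, 9 without VCD_Low_E2, 10 without VCD_High_PBDE_E2 and 28 without VCD_E2.

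Intact, VCD_Vehicle_NormEnv and VCD_E2_ICI stood outside the layout, and with VCD_Vehicle_NormEnv added to it as another library without hormone and PBDE 363 genes passed the estrogen contrast. The values of VCD_E2_ICI were not tested and carry exact Poisson intervals that cover counting error only. In members of VCD_E2_ICI, Irf7 was at 59.4 CPM (53.3 to 66.03), against 181 CPM (168 to 194) in VCD_E2 and 88.5 CPM (80.2 to 97.4) in VCD_Vehicle. Itgb7 was at 192 CPM (181 to 204) in VCD_E2_ICI, 119.5 CPM (109.6 to 130.1) in VCD_E2 and 165 CPM (154 to 177) in VCD_Vehicle. For both genes the library with the antagonist lay beyond VCD_Vehicle on the side away from VCD_E2. VCD_E2_ICI carries the other file-name tag than VCD_E2 and VCD_Vehicle, so tag and antagonist cannot be told apart. Gpx3 was different, at 1403 CPM (1372 to 1433) in VCD_E2_ICI, 1119 CPM (1089 to 1151) in VCD_E2 and 675 CPM (652 to 699) in VCD_Vehicle. Il34 and Bmp3, which marked the members, were at 96.96 CPM (89.1 to 105) and 138 CPM (129 to 148) in VCD_E2_ICI. These intervals overlapped those of VCD_E2, at 97.4 CPM (88.4 to 107) and 121 CPM (111 to 132). They lay above the 47.02 CPM (41.03 to 53.7) and 49.8 CPM (43.6 to 56.6) of VCD_Vehicle. VCD_E2 was the highest hormone library of the layout for both genes. The lowest hormone levels there, 40.9 and 46.7 CPM, were not above VCD_Vehicle. Both genes climbed with the cell's sum of Krtdap, Dmkn and Sbsn. The median sum in members was 28 UMIs in VCD_E2, 23 in VCD_E2_ICI and 14 in VCD_Vehicle. The part of this sum in these levels was not tested.

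In Intact members, Gpx3 was at 1046 CPM (1019 to 1074), Irf7 at 124 CPM (114 to 133) and Itgb7 at 138 CPM (129 to 148), each between the values of VCD_Vehicle and VCD_E2. Ctla2a was at 29.8 CPM (25.4 to 34.7) in Intact and 3.19 CPM (1.79 to 5.26) in VCD_Vehicle. VCD_Vehicle_NormEnv and VCD_Vehicle, the vehicle libraries, differed by more than counting error for Gpx3, with 1094 CPM (1070.0 to 1118) in the former, whereas the intervals overlapped for Itgb7 at 161 CPM (152 to 171) and Irf7 at 80.7 CPM (74.3 to 87.5). For Gpx3 the interval of VCD_Vehicle_NormEnv overlapped that of VCD_E2.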

How the data were processed

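For each of 12 libraries the authors deposited a matrix of counts, in UMIs of a gene in a barcode (10x Chromium 3′ chemistry, Cell Ranger 3.1.0, mm10, per the submitters' processing notes), with no normalization. Cells were dissociated from the fourth glands with collagenase, which can raise immediate early genes, and the cell calling of the deposited matrices was taken as it stands. Members and gene lists were chosen with earlier results of these data known. Doublets were treated by the Ptprc, Pecam1 and Epcam steps and, as an alternative, by leaving out cells above 2 times the median UMIs. No doublet caller was run.

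The UMIs of a population were summed per library and tested with edgeR 4.0.16 (quasi-likelihood, TMM, filterByExpr, R 4.3.3), with Benjamini-Hochberg adjustment over all genes fitted and a threshold of 0.05. Those of the 18 genes of the rule that passed the count filter entered the adjustment and were then left out of the calls and counts. Members against Krtdap-low cells were blocked by library, which left 11 residual degrees of freedom. The layout of hormone by PBDE was additive. Sums with fewer than 10 cells would have been dropped, and none was. Genes were named by log2 fold change among those with an adjusted p under 0.05, leaving out rule genes. Mitochondrial and ribosomal protein genes were left out too for members against Krtdap-low cells and for E2 only. For members against Krtdap-low cells these were the 12 highest and 10 lowest with at least 20 CPM and 1 sign in every library. For E2 they were the 10 highest and 10 lowest with at least 20 CPM and no overlap between hormone and hormone-free libraries, for P4 and PBDE the 4 highest and 4 lowest with at least 20 CPM, and for the difference the 5 highest and 5 lowest. Some genes are not reported here. Genes of the lists were named in addition, after their values were seen. Shares carry exact (Clopper-Pearson) binomial intervals and single levels exact Poisson intervals at 95%.

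Each fit was tested on simulated counts with known changes, where the share of false calls was above the threshold for the E2, low PBDE and high PBDE contrasts and the difference. Alternatives were DESeq2 1.42.0, DESeq2 size factors, no filter, other thresholds, depth limits, the removing steps left out, added libraries and covariates, and each library left out in turn. Gene positions are from GENCODE M21, promoters from RefSeq on GRCm38.p6, and other steps used Python 3.11.15, scipy 1.17.1 and matplotlib 3.10.9.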

Additional observations from a re-analysis of the deposited data

Results flagged for a closer look

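The estrogen contrast differed between members and Krtdap-low Pi16 Dpp4 fibroblasts, by the interaction term of edgeR's quasi-likelihood test, for 6 genes named here. The difference of log2 contrasts, members minus Krtdap-low, was 1.47 ± 0.28 for Cpe (SE, adjusted p = 0.0371), 1.13 ± 0.22 for Ifitm1 (adjusted p = 0.0371), 1.08 ± 0.16 for Cxcl13, 0.93 ± 0.17 for Steap4 (adjusted p = 0.026), 0.67 ± 0.08 for Il33 and -4.29 ± 0.82 for Gdf15 (adjusted p = 0.0371). Il33 passed in 16 of 17 alternatives, Cxcl13 in 14 of 17, Cpe in 8 of 16, Ifitm1 in 6 of 16, Steap4 in 5 of 16 and Gdf15 in 4 of 15. No least level was required of genes named for this difference. Cpe was at 6.58 ± 2.71 CPM in members (SD, n = 12) and 7.67 ± 4.96 CPM in Krtdap-low cells. Ifitm1 was at 11.7 ± 6.81 CPM and 8.05 ± 3.91 CPM. The Krtdap-low sum of VCD_E2 held 714264 UMIs, so such levels rest on few UMIs there. Gdf15 had 84 UMIs in all members and 58 in all Krtdap-low cells, and its level in Krtdap-low cells was highest in VCD_Low_E2, at 12.99 CPM, with 0 in VCD_E2 and 1.33 CPM in VCD_High_PBDE_E2. Steap4 was 7.02, 6.93 and 5.82 CPM without hormone, 10.5, 14.7 and 12.7 CPM with E2 and 22.5, 26.8 and 27.4 CPM with E2 + P4 in members, and 31.4, 22.7 and 20.7 CPM, 28.00, 24.4 and 26.02 CPM and 38.8, 53.2 and 54.2 CPM in Krtdap-low cells. No group had enough libraries for a test of single libraries that stand apart.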

How the results depend on the processing

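The 22 genes named for members against Krtdap-low cells passed in all 462 values from alternatives. The count was 3625 with the removing steps left out, 595 with no library block and 1800 to 2081 with libraries left out. The E2 count was 629 with no filter, 877 with the removing steps left out, 12 with the tag as a covariate and 12 to 620 with libraries left out. For E2 and P4 the fit with the tag amounts to the fit without VCD_Low_PBDE. The P4 count was 40 by DESeq2, 63 with no filter, 6 with at least 10 UMIs, 5 with at least 3 per 10000 UMIs, 5 in cells of 10000 to 30000 UMIs, 8 with the tag and 1 to 40 with libraries left out. The low PBDE count was 2 by DESeq2, 2 with no filter and 0 to 0 with libraries left out. The high PBDE count was 90 by DESeq2, 8 with DESeq2 size factors, 188 with no filter, 13 with at least 10 UMIs, 9 with at least 3 per 10000, 9 in cells of 10000 to 30000 UMIs, 13 without deep cells, 2 with the removing steps left out, 7 with VCD_Vehicle_NormEnv added, 0 with the tag and 2 to 74 with libraries left out. The count for the difference was 4 by DESeq2, 125 with no filter and 1 to 28 with libraries left out. Members were 47.4%, 60.4% and 54.6% of the Pi16 Dpp4 fibroblasts with at least 10 UMIs, at least 3 per 10000 and thinned cells and 58.2% with the removing steps left out, and 19.2% of fibroblasts with those steps left out, 10.2% with at least 10 UMIs and 12.6% with 10% mitochondrial UMIs allowed. VCD_Vehicle had the lowest share of Pi16 Dpp4 fibroblasts in each of these settings and VCD_E2 the highest, except that VCD_High_PBDE was highest (66.9%, VCD_E2 66.7%) with the removing steps left out. The lowest share of all fibroblasts was that of VCD_Vehicle with those steps left out (10.4%) and in thinned cells, and otherwise that of VCD_Low_E2. No named gene that passed changed sign in any alternative, while Esr1 and Krt19 in the estrogen contrast and Cox6b1 and Usf2 between members and Krtdap-low cells, which did not pass, took both signs. Of the values of genes named by rule, 93 of 380 for E2, 15 of 57 for P4, 64 of 152 for high PBDE and 44 of 97 for the difference lost the call, and Igfbp5 and Il33 gained that of the estrogen contrast in 3 of 19 alternatives each, and the cause was not tested. The removing steps and the tag were chosen as alternatives after seeing the data. Members and Krtdap-low cells were paired by library. Between groups, no paired analysis was possible because each group is 1 library and the number 1 marks no pair.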

Other observations

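Of 18 tested targets of the glucocorticoid and progesterone receptors, Angptl4, an inhibitor of lipoprotein lipase, and Sgk1, a kinase, rose in the estrogen contrast and 0 fell, beside 1.61% and 0.755% of all genes tested. The list median was -0.07, against -0.01 over all genes tested. Angptl4 was 62.8, 62.8 and 36.6 CPM without hormone, 124, 132 and 101 CPM with E2 and 86.99, 116 and 103 CPM with E2 + P4 (edgeR, log2 fold change 1.07 ± 0.14 (SE), adjusted p = 0.0106), and Sgk1 was 71.7, 61.3 and 69.7 CPM without hormone, 103, 172 and 159.5 CPM with E2 and 73.7, 91.1 and 113 CPM with E2 + P4 (log2 fold change 0.78 ± 0.14 (SE), adjusted p = 0.0304). Angptl4 passed in 17 of 19 alternatives and Sgk1 in 10 of 19, and Sgk1 passed in 2 of 9 fits without 1 library. Of 20 tested cytokine and chemokine genes, Ccl8 and Tslp rose and Cxcl14 fell (list median 0.44), and of 10 tested retinoid and prostaglandin genes 0 rose and Ptgs1 fell (list median 0.20). Cxcl14, a chemokine, was 24.04, 16.4 and 14.7 CPM without hormone, 6.72, 9.40 and 4.16 CPM with E2 and 7.75, 13.8 and 9.96 CPM with E2 + P4 (log2 fold change -1.08 ± 0.21 (SE), adjusted p = 0.0356) and passed in 7 of 19 alternatives. Tslp, an epithelial and stromal cytokine, was 6.81, 8.43 and 7.13 CPM without hormone, 17.01, 15.4 and 16.2 CPM with E2 and 16.98, 11.7 and 10.8 CPM with E2 + P4 (log2 fold change 0.93 ± 0.16 (SE), adjusted p = 0.0249) and passed in 12 of 19. Ptgs1, which was higher in members than in Krtdap-low cells, was 98.1, 89.3 and 110.5 CPM without hormone, 84.4, 65.6 and 76.4 CPM with E2 and 58.2, 58.9 and 69.7 CPM with E2 + P4 (log2 fold change -0.52 ± 0.08 (SE), adjusted p = 0.0179) and passed in 13 of 19. Values are in the order no, low and high PBDE.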
